A study of Mus musculus with 14 samples.

Results

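Fatty acid uptake and oxidation were followed through 32 genes, from lipoprotein lipase at the vessel wall to the flavoproteins that pass electrons to the respiratory chain, in transplanted mouse hearts. The genes were chosen by name, with earlier results of these data known. Each was read from the brightest probe set annotated to it on the MG-U74Av2 oligonucleotide array. Of the 32 genes, 27 had such a probe set and 26 were above the detection floor of 11 signal units on at least 3 arrays and were tested. The whole array represents 8252 genes. Acadvl, the very long chain acyl-CoA dehydrogenase, read 0.6 to 8.4 on all arrays and was not tested. Acsl1, Cpt1b, Hadha, Acat1 and Ucp2 were not analysed here. None of the 26 tested genes had a whole group of arrays under the floor.

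The hearts fall into 5 groups of 14 arrays, and every recipient was C57/BL6. Isografts were C57/BL6 hearts, sampled at day 7 (n = 3) and day 70 (n = 2). Rejecting allografts were Balb/c hearts in recipients without a named treatment, sampled at day 7 (n = 3). Tolerizing allografts were Balb/c hearts in recipients given anti CD80/86 mAb, antibodies that block the costimulation of T cells, sampled at day 7 (n = 3) and day 70 (n = 3). Allografts thus differ from isografts in donor strain too, whose part in a difference cannot be told apart from that of the response to the graft. Rejecting and tolerizing allografts share their donor strain. The labels do not state that replicate arrays came from separate animals, so p-values measure the spread between these arrays only.

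The adult heart draws most of its energy from long-chain fatty acids. Lipoprotein lipase frees them from lipoproteins, transporters and binding proteins carry them into the muscle cell, and the carnitine shuttle moves them as acylcarnitines across the inner mitochondrial membrane. Beta oxidation then shortens the chain in repeated cycles of dehydrogenation, hydration, a second dehydrogenation and thiolysis. The electrons of the first step leave through the electron transfer flavoprotein. The nuclear receptor PPAR alpha, encoded by Ppara, activates many of these genes when it is bound by fatty acids.

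Promoter sequences were available for 26 of the 32 genes, as 250 bases before to 50 bases after the gene start (RefSeq, GRCm38.p6). They are shown here because PPAR alpha and related receptors bind copies of the letters AGGTCA. That hexamer, on either strand, was in 6 of the 26 promoters (23.1%), those of Cd36, Cpt1a, Acadvl, Acadm, Echs1 and Ucp3, and in 18.1% of the promoters of 27025 genes. A pair of copies with 1 base between them, AGGTCANAGGTCA, was in 0 of 26 and in 0.0481% of all genes. The extended site TCAAGGTCA, whose last letters overlap the hexamer, was in 0 of 26 and in 0.466%. A match describes the letters in this window only. The stretches below surround the hexamer in 3 genes that were lower in rejecting allografts and in Cpt1a, which was not; capitals mark AGGTCA or its reverse complement. They lie at chr3:153944847-153944893 (minus strand) for Acadm, chr5:17836079-17836146 (minus) for Cd36, chr7:140116459-140116544 (minus) for Echs1 and chr19:3323167-3323252 (plus) for Cpt1a, and the hexamer starts 249, 228, 83 and 94 bases before the gene start.
Acadm: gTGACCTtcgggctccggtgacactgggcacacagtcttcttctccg
Cd36: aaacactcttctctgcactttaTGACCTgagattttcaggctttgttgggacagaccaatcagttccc
Echs1: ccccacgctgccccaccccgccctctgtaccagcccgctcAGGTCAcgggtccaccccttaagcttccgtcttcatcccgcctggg
Cpt1a: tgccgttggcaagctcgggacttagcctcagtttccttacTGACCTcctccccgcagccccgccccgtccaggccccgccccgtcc

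The arrays had nearly equal trimmed mean signals of 100.06 to 100.07, and correlations within groups of 0.872 to 0.959. Their number limits the precision of every value. By accession number they fall into a first run of 5 arrays, 1 from each group, and a second run of 9, and the 18S control separated the runs (30.3 to 83.4 against 120.4 to 254.6). Rejecting array 3, in the first run, stood apart from the other 2 rejecting arrays: its 26 genes had a median of -1.54 (log2) relative to isografts at day 7, against -2.47 and -2.13. Its 16 genes of a heart muscle list had a median of -0.79, against -2.69 and -2.44. Beta-actin probe sets at both ends of the transcript, a gauge of RNA integrity, gave 3' over 5' ratios at day 7 of 1.52 to 1.98 (isograft), 1.26 to 1.61 (rejecting) and 1.09 to 1.37 (tolerizing). At day 70 these were 1.75 to 1.76 (isograft) and 1.24 to 1.69 (tolerizing).

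In rejecting allografts at day 7, genes of every step from uptake to electron transfer were lower than in isografts. The test called 21 of the 26 genes lower and 0 higher at an adjusted p under 0.05 (limma, Benjamini-Hochberg over 10395 probe sets), against 9.18% of all probe sets tested. The median difference was -1.91 (log2), against 0.04 for all probe sets. In 24 of the 26 genes every rejecting array was below every isograft array, which held for 15.4% of all probe sets. Cpt1a alone had a positive difference. Without rejecting array 3, 20 genes were lower, against 10.5% of all probe sets, and 1 was higher, against 10.3%. These directions are relative to all RNA on an array. Relative to the heart muscle genes of the same array, 14 of the 26 differences were positive, 3 of them called, as described further on. In tissue of many cell types, fewer muscle cells and less RNA per muscle cell cannot be told apart.

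**Figure D1:**
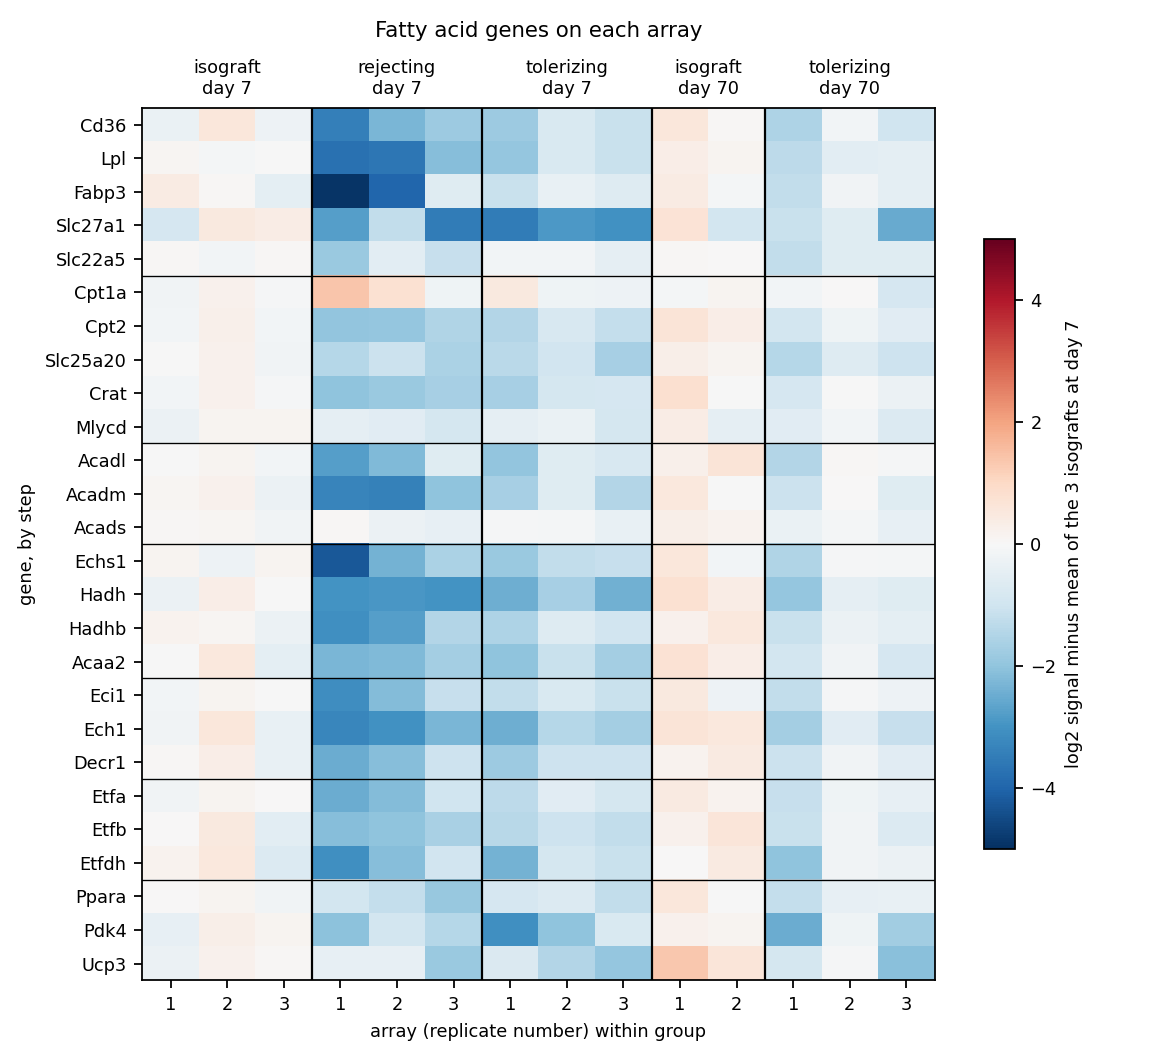
Heat map of the 26 tested genes (vertical axis, grouped by step) on the 14 arrays (horizontal axis, replicate number within group). Colour is log2 signal minus the mean of the 3 isografts at day 7, blue for lower and red for higher. The 3 rejecting arrays are blue for nearly every gene except Cpt1a, the tolerizing arrays are paler blue, and the isografts at day 70 are mostly white to pale red. Relative to heart muscle genes, 14 of the 26 differences of rejecting allografts from isografts are positive, 3 of them called.

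All 5 measured genes of uptake were lower in rejection, with a median of -2.50. Lpl encodes lipoprotein lipase, which frees fatty acids from circulating triglyceride. Its signal was 3197, 2790.6 and 2968 in isograft arrays 1, 2 and 3, and 222.3, 244.2 and 681.8 in the rejecting arrays. Every rejecting array was far below the isografts, rejecting array 3 least so. Lpl fell 8.94-fold (log2 -3.16, SE 0.40, adjusted p = 0.000295), and a second probe set gave -2.29 (SE 0.55, adjusted p = 0.0110). Cd36, a fatty acid translocase of the cell membrane, read 109.9, 201.8 and 114.8 in isografts and 12.9, 28.1 and 38.5 in rejection, again without overlap (5.67-fold lower, log2 -2.50, SE 0.45, adjusted p = 0.00217).

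Fabp3, the fatty acid binding protein of heart muscle cytosol, split the rejecting arrays. Isografts gave 3508, 2773 and 1882, and rejecting arrays gave 87.0, 169.2 and 1749. The third rejecting array was only just under the lowest isograft. The pooled difference was -3.16 (SE 0.78, 8.93-fold lower, adjusted p = 0.0123), but it was -0.11 in the first accession run and -4.68 in the second. The call was lost without rejecting array 1 or 2, with an adjusted p of up to 0.0573. Slc27a1, a fatty acid transport protein that also activates its cargo, read 68.5, 172.5 and 157.8 against 18.4, 52.8 and 8.2 (5.59-fold lower, log2 -2.48, SE 0.63, adjusted p = 0.0153). The last of these, rejecting array 3, was under the floor of 11 and set to it. Slc22a5, the carnitine importer OCTN2, read 61.3, 53.7 and 62.0 against 16.2, 40.4 and 26.6 (2.27-fold lower, log2 -1.18, SE 0.32, adjusted p = 0.0214). Both groups of arrays were apart in each gene. The calls were lost on leaving out any of 4 arrays for Slc27a1 (isograft 2 or 3, rejecting 1 or 3, adjusted p up to 0.0638) and any of 3 for Slc22a5 (isograft 1 or 3, rejecting 1, up to 0.0861).

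The carnitine shuttle fell in 3 of its 5 measured genes. Cpt2, the inner membrane carnitine palmitoyltransferase, read 691.0, 915.5 and 691.5 in isografts and 192.4, 200.6 and 269.6 in rejection. The rejecting arrays were close together and well below all isografts (3.48-fold lower, log2 -1.80, SE 0.23, adjusted p = 0.000314). Slc25a20, the carrier that exchanges acylcarnitine for carnitine, went from 434.3, 512.1 and 399.3 to 163.9, 210.4 and 147.7 (2.59-fold lower, log2 -1.37, SE 0.23, adjusted p = 0.00138). Crat, carnitine acetyltransferase, fell 3.57-fold (log2 -1.84, SE 0.28, adjusted p = 0.000848) from 273.3 to 353.0 in isografts to 74.5 to 96.6.

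Cpt1a and Mlycd were not called. Cpt1a, the outer membrane carnitine palmitoyltransferase of liver and many other tissues, read 164.9, 220.0 and 182.5 in isografts and 488.3, 317.7 and 160.1 in rejection. Its first 2 rejecting arrays were above all isografts and the third below them (log2 0.64, SE 0.35, adjusted p = 0.260). Without rejecting array 3 the difference was 1.07 (adjusted p = 0.0236). Mlycd, malonyl-CoA decarboxylase, which removes the inhibitor of Cpt1, read 307.5 to 412.1 in isografts and 203.3 to 272.8 in rejection (log2 -0.64, SE 0.24, adjusted p = 0.0916). Those groups did not overlap, but the difference missed the threshold.

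Among the acyl-CoA dehydrogenases, which open each round of beta oxidation for chains of different length, Acadm and Acadl fell. Acadm, for medium chains, read 2449, 2679 and 1889 in isografts and 232.9, 223.8 and 577.3 in rejection (7.44-fold lower, log2 -2.90, SE 0.39, adjusted p = 0.000438). Rejecting array 3 was again the highest of its group and still below all isografts. Acadl, for long chains, read 409.6, 453.2 and 377.8 against 61.8, 89.7 and 267.5 (3.62-fold lower, log2 -1.85, SE 0.51, adjusted p = 0.0225). The Acadl call was lost on leaving out any array other than rejecting array 3 (adjusted p up to 0.102). For Acads, the short-chain enzyme, the probe sets disagreed. The brightest gave -0.22 (SE 0.17, adjusted p = 0.447), while the other, at 144.2 to 200.3 in isografts and 69.8 to 80.2 in rejection, gave -1.16 (SE 0.22, adjusted p = 0.00308).

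The hydratase, hydroxyacyl dehydrogenase and thiolase steps held the lowest median of any step, -2.58, and all 4 measured genes fell. Hadh, the short-chain hydroxyacyl-CoA dehydrogenase, had the smallest adjusted p of the 26 genes. It read 663.5, 1023 and 803.7 in isografts (830.0 ± 181.1, SD, n = 3) and 103.3, 110.0 and 102.9 in rejection (105.4 ± 3.99, SD, n = 3). The rejecting arrays nearly coincided, 7.76-fold below the isografts (log2 -2.96, SE 0.34, adjusted p = 0.000135), and the difference was -2.97 in the first accession run and -2.95 in the second. Echs1, the enoyl-CoA hydratase, read 476.2, 366.7 and 475.1 against 23.2, 84.0 and 143.9 (6.66-fold lower, log2 -2.74, SE 0.54, adjusted p = 0.00385). Hadhb, the thiolase subunit of the trifunctional protein, fell 5.38-fold (log2 -2.43, SE 0.37, adjusted p = 0.000863), from 2102 to 2915 down to 306.8 to 920.9. Acaa2, the mitochondrial thiolase, fell 4.19-fold (log2 -2.07, SE 0.32, adjusted p = 0.000876), from 2253 to 4451 down to 641.4 to 970.0.

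Genes for auxiliary enzymes, which handle the double bonds of unsaturated fatty acids, fell in 3 of 3 cases. Ech1, a dienoyl-CoA isomerase, read 2262, 3828 and 1991 in isografts and 268.9, 319.2 and 536.4 in rejection (7.21-fold lower, log2 -2.85, SE 0.36, adjusted p = 0.000284). All rejecting arrays were far below the lowest isograft. Eci1, the enoyl-CoA isomerase, fell 4.45-fold, with 484.6 to 584.2 in isografts and 60.8 to 233.7 in rejection (adjusted p = 0.00313). Decr1, the dienoyl-CoA reductase, fell 3.67-fold, with 127.7 to 210.8 against 29.9 to 81.3 (adjusted p = 0.00345). Neither had overlapping groups.

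Electron transfer fell in 3 of 3 genes. Etfa and Etfb encode the subunits of the electron transfer flavoprotein. Etfa read 574.3, 701.5 and 652.3 in isografts and 115.7, 143.1 and 317.9 in rejection (3.68-fold lower, log2 -1.88, SE 0.34, adjusted p = 0.00208). Etfb read 1040.3, 1439 and 706.9 against 231.2, 249.9 and 332.0 (3.81-fold lower, log2 -1.93, SE 0.28, adjusted p = 0.000629). A second, dimmer probe set of Etfb did not show this difference (log2 -0.24, SE 0.32, adjusted p = 0.687). Etfdh, the dehydrogenase that hands the electrons to ubiquinone, fell 4.13-fold, with 300.0 to 683.1 in isografts against 58.0 to 250.2 (log2 -2.04, SE 0.58, adjusted p = 0.0253). Its call was lost without isograft array 1 or 2 or rejecting array 1 or 2 (adjusted p up to 0.113).

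Among the regulators, Ppara fell. It read 94.7, 101.1 and 82.8 in isografts and 49.0, 41.0 and 25.2 in rejection (2.50-fold lower, log2 -1.32, SE 0.31, adjusted p = 0.00958). Pdk4, the kinase that shuts off pyruvate oxidation when fatty acids are burned, read 483.0, 794.6 and 700.7 against 154.5, 337.7 and 241.2. These groups did not overlap, but the difference of -1.47 (SE 0.57) had an adjusted p of 0.0963. Ucp3, a mitochondrial carrier related to uncoupling protein, read 37.9 to 54.1 against 12.8 to 34.9 (log2 -0.89, adjusted p = 0.290).

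**Figure D2:**
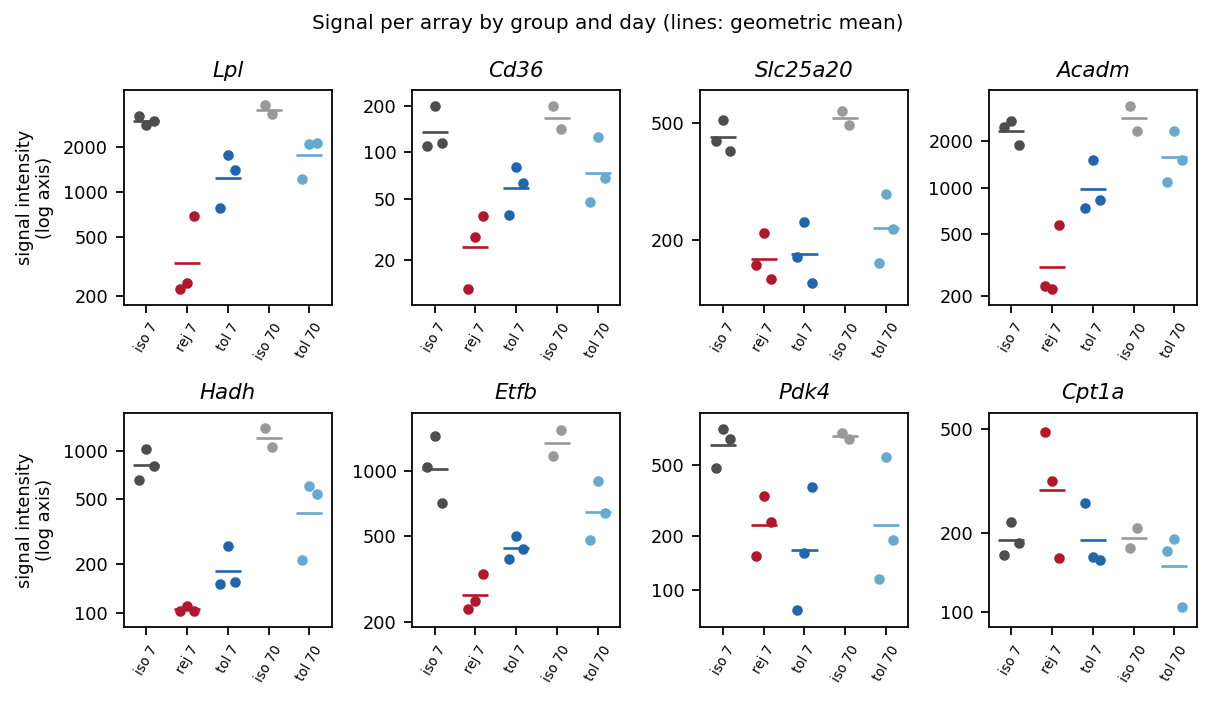
Signal intensity (vertical axes, logarithmic, each panel with its own range) of 8 genes on every array by group (horizontal axes: iso, isograft; rej, rejecting; tol, tolerizing; with the day). Points are arrays and lines are geometric means. Lpl and Acadm are lowest in rejection with tolerizing allografts between, Slc25a20 is equally low in rejecting and tolerizing allografts at day 7, and Cpt1a is highest on 2 rejecting arrays. Relative to heart muscle genes, the differences of Slc25a20, Etfb and Pdk4 between rejecting allografts and isografts turn positive, without being called.

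Several lists of cell type markers also differed between rejecting allografts and isografts, lower in some lists and higher in the leukocyte list. Of all probe sets 9.18% were called lower and 8.54% higher in this comparison, and 0.885% lower in rejecting against tolerizing allografts. In the heart muscle list 13 of 16 genes were lower and 0 higher in rejection (median -1.83, -0.58 in the first accession run and -2.83 in the second), and the summed signal was 37169 to 56165 in isografts against 6504 to 25866. Of 20 leukocyte genes 17 were higher (median 2.12), with summed signals of 3473 to 3789 against 9614 to 12502. Of 9 endothelial genes 5 were lower (median -0.99). Of 7 fibroblast and matrix genes 3 were lower and 0 higher in rejection against isografts (median -0.90, -2.51 in run 1 and -0.18 in run 2), and 3 were lower against tolerizing allografts (median -0.84). Of 4 tested fat cell genes 2 were lower, Fabp4 and Lipe. Among genes that define fat cells, Cidec read 0.7 to 3.1 and Retn 3.4 to 17.2 over all arrays. Lep read 87.2 to 396.5, and Adipoq 11.2 to 190.7, with up to 134.3 in an isograft at day 7 and the highest value in a tolerizing allograft at day 70. The summed fat cell signal was 346.9 to 580.7 in isografts and 224.0 to 531.8 in rejecting allografts at day 7. Of 8 tested skeletal muscle genes limma called 0 (1 at an unadjusted p under 0.05). The first run gave a median of -1.29 over the 26 fatty acid genes, and the second -2.42. The part of these other cell types in the falls was not tested.

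The fatty acid genes were therefore also read relative to the mean log2 signal of the 16 heart muscle genes on the same array. On that scale the median of all probe sets shifted from 0.04 to 2.06, because heart muscle genes themselves were low. Rejecting allografts and isografts then differed by a median of 0.12 over the 26 genes, with 12 differences negative. Several differences of either sign were smaller than their standard error, such as Etfb (0.10, SE 0.46) and Acaa2 (-0.04, SE 0.46), so their sign is not settled. The 16 reference genes include Tpm1, at 133.6 to 688.5 in rejection against 115.4 to 194.3 in isografts. Myl7, also among them, read 4.1 to 14.7 against 5.8 to 397.5. Lpl (log2 -1.13, adjusted p = 0.0181) and Fabp3 (-1.13, adjusted p = 0.0309) were lower, against 0.327% of all probe sets. Cpt1a (2.66), Acads (1.81) and Mlycd (1.39) were higher, against 88.4% of all probe sets. The Acads value is that of its brightest probe set. Its other probe set was lower in rejection without this reference (limma, log2 -1.16, adjusted p = 0.00308) and was not read on this scale. The remaining 21 were not called, Hadh (-0.93, adjusted p = 0.0811), Acadm (-0.87, adjusted p = 0.0629) and Ech1 (-0.82, adjusted p = 0.0821) among them.

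On single rejecting arrays the order of both lists varied. The fatty acid median minus the heart muscle median was 0.22 and 0.31 on rejecting arrays 1 and 2, where heart muscle genes were lowest. It was -0.76 on rejecting array 3, where heart muscle genes were only mildly low. On the 3 tolerizing arrays at day 7 it was -0.78, -0.52 and -0.63, and on those at day 70 -0.71, -0.25 and -0.40. The isografts gave -0.18, 0.15 and 0.13 at day 7 and 0.22 and 0.23 at day 70. Every tolerizing array was therefore below every isograft on this measure, and the rejecting arrays lay on both sides.

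**Figure D3:**
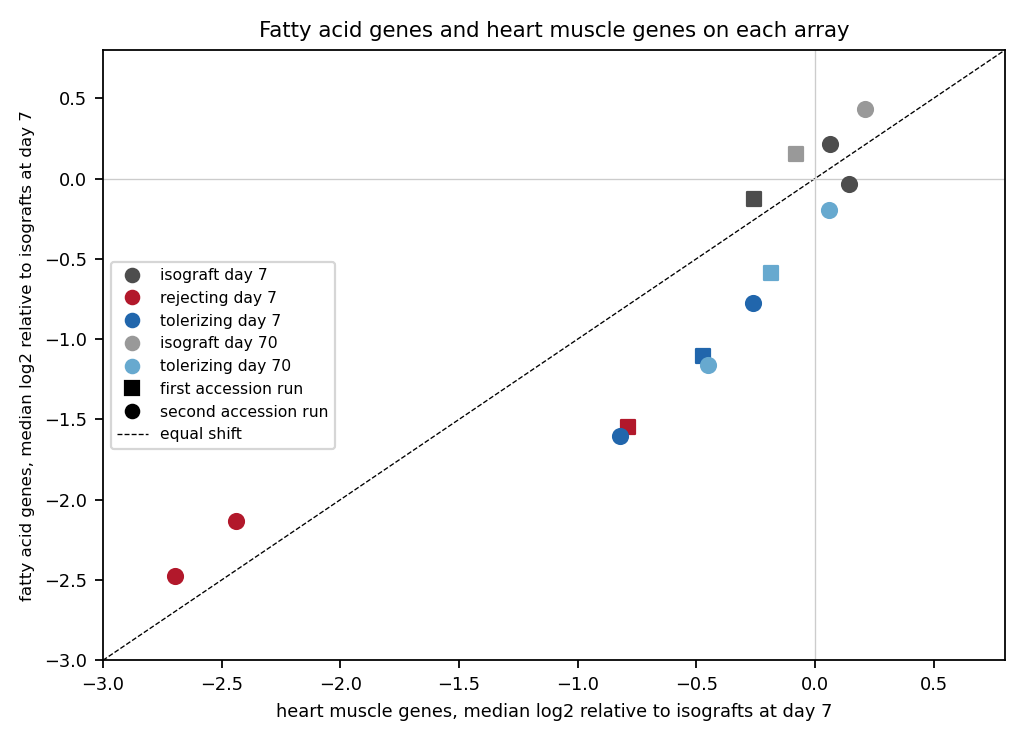
Median log2 signal of the 26 fatty acid genes (vertical axis) against that of 16 heart muscle genes (horizontal axis) on each array, both relative to isografts at day 7. Colours are groups, squares the first and circles the second accession run, and the dashed line marks an equal shift. The 6 tolerizing arrays, rejecting array 3 and isograft array 1 of day 7 lie below the line. Rejecting arrays 1 and 2 lie slightly above it at the lower left.

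Tolerizing allografts at day 7 were compared with the same isografts. Lower were 7 of the 26 genes and higher 0 (limma), against 0.750% of all probe sets called lower. The median was -1.22, against -0.02 for all probe sets, and 25 of the 26 differences were negative. In 22 genes every tolerizing array was below every isograft, against 11.6% of all probe sets. The 7 genes were Slc27a1, Cpt2, Slc25a20, Hadh, Acaa2, Ech1 and Etfb. All of them were also lower in rejection, a comparison that shares the isografts. Slc27a1, Pdk4 and Ucp3 had more negative differences here than in rejection (-3.13, -1.94 and -1.37 against -2.48, -1.47 and -0.89).

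Hadh read 150.0, 256.7 and 155.3 in tolerizing allografts, all far below the isografts (4.50-fold lower, log2 -2.17, SE 0.34, adjusted p = 0.00422). Slc25a20 read 174.3, 230.5 and 142.7, much like the rejecting arrays (2.49-fold lower, log2 -1.32, SE 0.23, adjusted p = 0.00879). Slc27a1 read 10.6, 16.7 and 15.1, near the floor of 11 and below each isograft (8.76-fold lower, log2 -3.13, SE 0.63, adjusted p = 0.0240). The first tolerizing value lay under the floor and was set to it. Ech1 fell 3.60-fold, from 1991 to 3828 down to 478.3, 963.1 and 799.1 (adjusted p = 0.0189). Acaa2 fell 3.04-fold, to 771.5, 1461 and 968.0 (adjusted p = 0.0212). These beta oxidation genes had no tolerizing array within the isograft range. Cpt2 fell 2.21-fold, to 275.7, 440.3 and 336.2 (adjusted p = 0.0236), and Etfb 2.32-fold, to 389.7, 498.8 and 435.0 (adjusted p = 0.0429). The second probe set of Etfb gave -0.13 (SE 0.32, adjusted p = 0.940), and the Etfb call was lost with the mean over its probe sets.

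Several genes with large falls in rejection missed the threshold here. Lpl read 773.6, 1765 and 1387 in tolerizing allografts, all below the isografts (log2 -1.27, SE 0.40, adjusted p = 0.161). On its second probe set the groups overlapped, at 178.7 to 519.7 against 372.7 to 616.7 in isografts (log2 -0.53, SE 0.55, adjusted p = 0.794). Acadm read 736.2, 1516 and 834.8 (log2 -1.24, adjusted p = 0.158), and Cd36 39.0, 80.4 and 63.4 (log2 -1.23, adjusted p = 0.245). Pdk4 read 77.5, 160.6 and 379.5, the lowest mean of any group (log2 -1.94, SE 0.57, adjusted p = 0.128). Ppara read 51.4, 57.7 and 39.4 (log2 -0.92, SE 0.31, adjusted p = 0.200). Each of these 5 genes had groups that did not overlap on its brightest probe set. Fabp3, at 1232, 2043 and 1695, overlapped the isografts (log2 -0.70, adjusted p = 0.814), and Cpt1a did not differ in mean (log2 0.00, SE 0.35).

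Heart muscle genes were called in 0 of 16 cases in this comparison (limma, 0 also at an unadjusted p under 0.05), with a median of -0.46. Leukocyte genes were higher in 2 of 20 (median 1.16), against 98 of all 10395 probe sets called higher. Relative to the heart muscle list, 23 of the 26 fatty acid genes kept a negative difference (median -0.70, against 0.51 for all probe sets). Of these limma called 0, and of all 10395 probe sets it called 1 lower on that scale. At an unadjusted p under 0.05 were 5 of the 26. Without that reference 22 of the 26 had an unadjusted p under 0.05. The share of all probe sets at that unadjusted threshold is not given here, so how far these counts exceed it is not shown. The beta-actin ratios of the 2 groups did not overlap. With the ratio as a covariate 0 genes were called, and of all 10395 probe sets 2 were lower, against 78 without it. The median of the 26 differences was -1.33 with the ratio and -1.22 without it. The number called lower was 4, 1 and 6 without isograft array 1, 2 or 3, against 42, 30 and 52 of all 10395 probe sets. It was 2, 5 and 1 without tolerizing array 1, 2 or 3, against 28, 56 and 26. Hadh alone was called under each of these 6 omissions. A fit restricted to both groups called 2, against 22 of all 10395 probe sets called lower. The second accession run alone called 0, against 6 of 10395, with a median of -1.29 over the 26 genes.

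**Figure D4:**
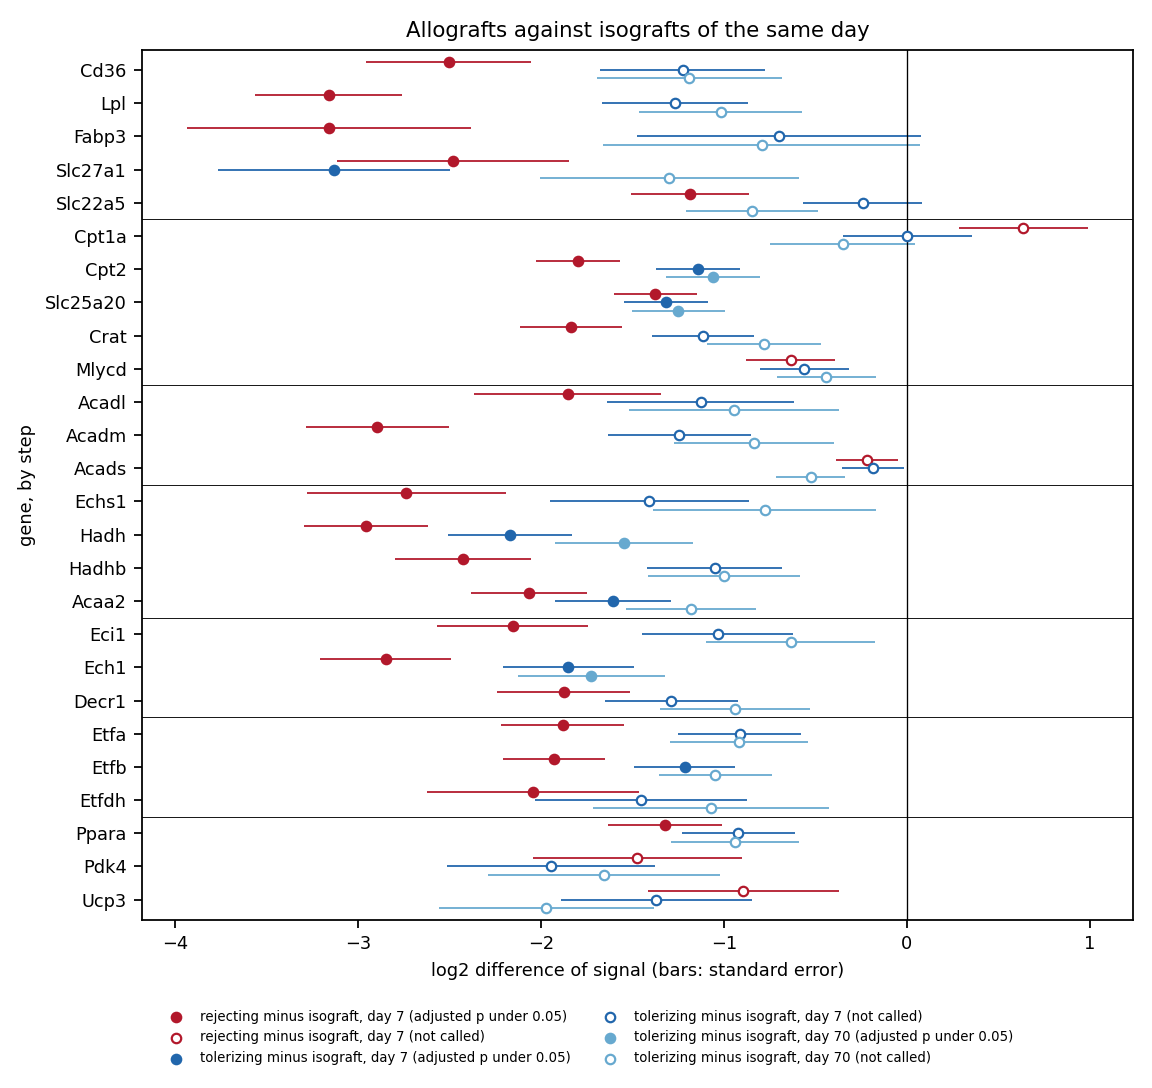
Log2 difference of allografts from isografts of the same day (horizontal axis) for the 26 genes (vertical axis, by step), with bars for the standard error. Colours are the 3 comparisons, and filled points have an adjusted p under 0.05. The red points of rejection are filled for 21 genes and the dark blue points of tolerizing allografts at day 7 are filled for 7, and the light blue points at day 70 for 4. Relative to heart muscle genes, 14 of the 26 differences of rejection are positive, 3 of them called.

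Rejecting and tolerizing allografts at day 7 come from the same donor strain. Of the 26 genes 1 was lower in rejection, against 0.885% of all probe sets, and 0 were higher. That gene was Lpl, at 222.3, 244.2 and 681.8 in rejecting and 773.6, 1765 and 1387 in tolerizing allografts (3.71-fold lower, log2 -1.89, SE 0.40, adjusted p = 0.0335). On this brightest probe set of Lpl, the highest rejecting array came close to the lowest tolerizing array. The second Lpl probe set also had a negative difference but was not called (log2 -1.76, SE 0.55, adjusted p = 0.131). Its groups overlapped, with signals from 48.0 up to 259.7 under rejection against 178.7 up to 519.7 under tolerance. The median over the 26 genes was -0.72, against 0.06 for all probe sets, and 22 differences were negative. In 8 genes every rejecting array was below every tolerizing array, against 7.76% of all probe sets.

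The genes differed in how far rejection went beyond tolerance. Slc25a20 had nearly the same level in both (log2 -0.06, SE 0.23, adjusted p = 0.952). Mlycd (-0.07) and Acads (-0.03) were also close to 0, while Acadm (-1.65, SE 0.39, adjusted p = 0.0578) and Hadhb (-1.38, SE 0.37, adjusted p = 0.0909) were near the threshold. Slc27a1 (0.65), Cpt1a (0.63), Ucp3 (0.48) and Pdk4 (0.47) had positive differences that were not called.

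This comparison depended on rejecting array 3. Without it 7 genes were lower (Lpl, Fabp3, Acadm, Echs1, Hadhb, Eci1 and Etfa), against 4.49% of all probe sets. Cpt1a was higher (log2 1.07, adjusted p = 0.0492), against 2.92%. Without rejecting array 1 or 2, or tolerizing array 2 or 3, 0 genes were called, with an adjusted p of up to 0.183 for Lpl. Of all 10395 probe sets 48, 31, 26 and 30 were then lower. Heart muscle genes had a median of -1.59 (0 of 16 called, 15 at an unadjusted p under 0.05). Relative to them 0 fatty acid genes were lower and 8 were higher in rejection, against 75.0% of all probe sets called higher, with a median of 0.79 against 1.56.

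By day 70 the tolerizing allografts were compared with isografts of that day. Lower were 4 of the 26 genes, against 0.856% of all probe sets, and higher 0. All 26 differences were negative, with a median of -0.97 against -0.09 for all probe sets. The tested second probe sets gave 0.49 for Lpl, 0.06 for Etfb, -0.01 for Crat and -0.64 for Acads, none of them called. In 19 genes every tolerizing array was below both isografts, which with 3 against 2 arrays held for 22.0% of all probe sets. The 4 genes, Cpt2, Slc25a20, Hadh and Ech1, were all among the 7 that were lower at day 7.

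Slc25a20 read 548.1 and 492.1 in isografts and 167.3, 285.6 and 218.2 in tolerizing allografts (2.38-fold lower, log2 -1.25, SE 0.26, adjusted p = 0.0159). Ech1 read 4048 and 3703 against 802.9, 1735 and 1156 (3.30-fold lower, log2 -1.72, SE 0.40, adjusted p = 0.0328). Neither gene had overlapping groups. Cpt2 read 1187 and 966.2 against 400.1, 654.5 and 515.3 (2.09-fold lower, log2 -1.06, SE 0.26, adjusted p = 0.0396). Hadh read 1372 and 1051 against 213.1, 605.8 and 536.8 (2.92-fold lower, log2 -1.55, SE 0.38, adjusted p = 0.0411). Tolerizing array 1 was the lowest for all 4 of these genes.

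Ucp3 read 118.2 and 70.0 in isografts and 25.5, 44.6 and 9.7 in tolerizing allografts at day 70 (log2 -1.97, SE 0.59, adjusted p = 0.0945). The third tolerizing value was under the floor of 11 and set to it. This was the most negative difference of the 26 genes at that day, and it was not called. Pdk4, at 752.8 and 702.9 against 115.2, 556.0 and 192.1, ranged widely among the tolerizing arrays (log2 -1.66, adjusted p = 0.215). Acaa2 (log2 -1.18, adjusted p = 0.0980) and Etfb (-1.05, adjusted p = 0.0918), called at day 7, missed the threshold. Slc27a1, 8.76-fold lower at day 7, differed by -1.30 (adjusted p = 0.420).

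Heart muscle genes at day 70 had a median of -0.24 with 0 of 16 called and 0 at an unadjusted p under 0.05. Leukocyte genes were higher in 6 of 20 (median 1.62), against 244 of all 10395 probe sets called higher. Relative to the heart muscle list all 26 fatty acid genes kept a negative difference (median -0.75, against 0.13 for all probe sets). Of these limma called 0, and of all 10395 probe sets it called 3 lower on that scale. At an unadjusted p under 0.05 were 4 of the 26. With no such reference, 0, 6 and 2 of the 26 genes were called lower without tolerizing array 1, 2 or 3. Of all 10395 probe sets 27, 67 and 67 were lower, against 89 with all arrays. A fit of these groups alone called 0, against 5 of 10395. Leaving out isograft array 1 or 2 left 1 isograft, and the median over the 26 genes was then -0.92 or -1.11. The second accession run alone, also with 1 isograft, gave a median of -1.18.

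Over time, tolerizing allografts at day 70 against day 7 gave 0 genes called (limma), against 0.0385% of all probe sets called higher, and 5 of the 26 at an unadjusted p under 0.05. Positive differences were found in 23 of the 26 genes, with a median of 0.51 against -0.04 for all probe sets. Hadh went from 150.0 to 256.7 at day 7 to 213.1 to 605.8 at day 70 (log2 1.18, SE 0.34, adjusted p = 0.399), with overlapping groups. Same-numbered tolerizing arrays of the 2 days deviated together, and within these pairs Hadh went from 150.0 to 213.1, from 256.7 to 605.8 and from 155.3 to 536.8. Beyond the shared number no label links these arrays, so the pairs were drawn from these same data. Pair 3 holds the arrays of the first accession run, so run and pairing cannot be told apart there. In 16 of the 26 genes every pair was higher at day 70, against 15.8% of all probe sets, and in 2 every pair was lower. The share of all probe sets lower in every pair is not given here. These counts describe pairs drawn from the same values and were not tested. The median difference over the 26 genes was 0.36, 0.66 and 0.52 in pairs 1, 2 and 3. With the pair number as a block limma still called 0 genes, with 7 at an unadjusted p under 0.05, and Hadh had an adjusted p of 0.286. Of the 7 fibroblast and matrix genes limma called 0 over time, with a median of -1.74 in tolerizing allografts (5 at an unadjusted p under 0.05) and -1.13 in isografts (2). Isografts over the same time also had 0 called, against 0% of all probe sets higher, and 0 at an unadjusted p under 0.05. Their median was 0.28, and in 8 genes both arrays at day 70 were above all 3 at day 7, against 11.3% of all probe sets. The difference between tolerizing allografts and isografts was not shown to change between the days. The interaction called 0 of the 26 genes, against 0% of all probe sets higher, and 0 at an unadjusted p under 0.05. Its largest value was for Slc27a1 (log2 1.83, SE 0.95, unadjusted p = 0.0755).

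Related genes outside the 32 did not all share the direction. Of 25 tested genes of other fatty acid steps, 10 were lower and 4 higher in rejection at day 7, against 9.18% and 8.54% of all probe sets, with a median of -0.33. Relative to the heart muscle list 0 were lower and 17 higher, against 88.4% of all probe sets called higher, with a median of 1.70 against 2.06. Higher was Plin2, which coats lipid droplets, at 372.4 to 1366 in rejecting allografts against 235.4 to 258.9 in isografts (3.15-fold, log2 1.66, SE 0.35, adjusted p = 0.00566). Tolerizing allografts had 168.0 to 223.6, so that rejection was 3.88-fold above them (log2 1.95, SE 0.35, adjusted p = 0.0169). Acsl4 (2.40-fold, adjusted p = 0.00112) and Acsl5 (2.33-fold, adjusted p = 0.0132), acyl-CoA synthetases, were higher, and so was Angptl4, an inhibitor of lipoprotein lipase (2.74-fold, adjusted p = 0.0384). Acsl4 read 121.4 to 139.4 in rejecting allografts and 47.4 to 60.9 in isografts.

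Lower in rejection were Ivd, isovaleryl-CoA dehydrogenase of leucine breakdown, which passes electrons to the same flavoprotein (3.75-fold, log2 -1.91, SE 0.21, adjusted p = 0.000106), and Pccb, a subunit of propionyl-CoA carboxylase (3.49-fold, adjusted p = 0.00119). Ivd read 143.7 to 188.7 in isografts, 37.8 to 50.2 in rejecting allografts and 55.2 to 74.8 in the tolerizing group at day 7. It was also lower in tolerizing allografts at day 7 (2.60-fold, adjusted p = 0.00346) and at day 70 (2.85-fold, adjusted p = 0.00284). The lipase genes Lipe and Pnpla2, the lipoprotein receptor gene Vldlr, and Fabp4, Eci2, Hsd17b10, Hsd17b4 and Mmut made up the rest of the 10. On leaving out single arrays 5 to 11 were lower and 2 to 4 higher, against 676 to 1094 and 617 to 1074 of all 10395 probe sets.

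Of 8 tested receptors and cofactors of the PPAR and ERR families, 2 were lower in rejection, against 9.18% of all probe sets. Ppargc1a, a coactivator of mitochondrial genes, read 14.5 to 24.7 in isografts and 2.4 to 6.9 in rejection, where all arrays were under the floor. It was at least 1.73-fold lower (adjusted p = 0.0156). Nrip1, a corepressor, had a log2 difference of -0.69 (adjusted p = 0.0262). Esrra, the estrogen-related receptor alpha, had -0.64 (adjusted p = 0.0563) and was not called.

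**Figure D5:**
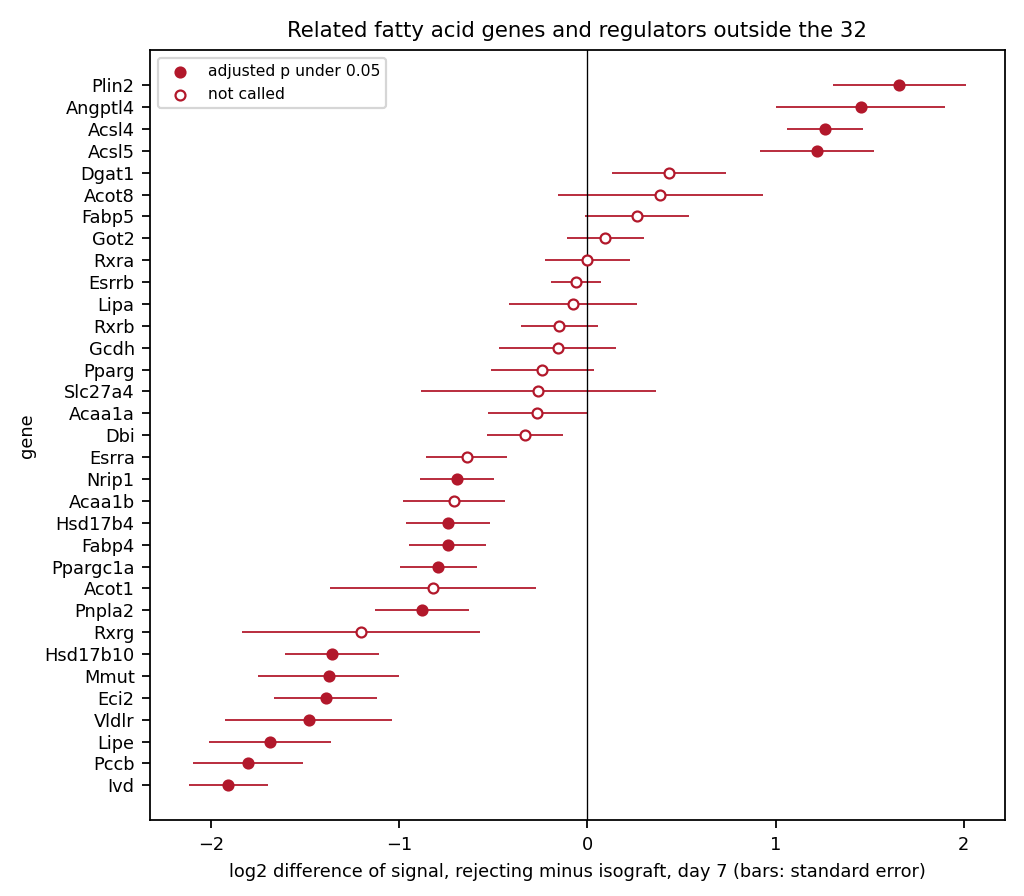
Log2 difference of rejecting allografts from isografts at day 7 (horizontal axis) for 33 related genes outside the 32 (vertical axis, sorted), with bars for the standard error and filled points for an adjusted p under 0.05. Plin2, Angptl4, Acsl4 and Acsl5 are filled on the right, and 12 genes from Ivd to Nrip1 are filled on the left. The differences are relative to all RNA on an array. Relative to heart muscle genes, 0 of the 25 genes of other fatty acid steps are called lower and 17 higher.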

How the data were processed

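Signal intensity for 12488 probe sets on 14 arrays, on a linear scale, was taken as deposited. The deposited values had nearly equal trimmed means. The authors' software and scaling were not given in sources used here. Probe sets were named from GEO's annotation of the platform, with symbols brought up to date from RefSeq gene IDs, and those with several genes (396) were not used. Signals under 11, the 25th percentile, were raised to it before taking log2. After removal of 66 controls, 10395 probe sets with 3 or more arrays over this floor were tested. All 5 groups entered 1 fit in limma 3.58.1 (R 4.3.3, eBayes with intensity trend, 9 residual and 4.45 prior degrees of freedom), with two-sided p-values adjusted by Benjamini-Hochberg over all probe sets and a threshold of 0.05. Folds come from mean log2 differences. Counts at an unadjusted p under 0.05 come from the same limma fits. They stand without the share of all probe sets at that threshold and are not calls.

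All 32 genes are named by step, with the brightest probe set per gene, and other genes only through fixed lists. Genes and lists were chosen with earlier results of these data known. Replicate numbers of tolerizing allografts at the 2 days deviated together (r 0.253 to 0.340 over probe sets for 3 pairs), so these were taken as paired, on the data alone. Same-numbered rejecting and tolerizing arrays at day 7, which were not taken as paired, reached an r of 0.252. Alternatives were scaling, floor, filter, trend, blocks, RNA quality, probe sets, a heart muscle reference and single arrays left out.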

Additional observations from a re-analysis of the deposited data

How the results depend on the processing

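Counts of the 26 genes are given as lower unless stated. For rejecting allografts against isografts at day 7, 21 genes were lower and the range over the alternatives was 16 to 22, except relative to the heart muscle list (2 lower, 3 higher). Of the 21 calls, 16 were kept under every alternative other than that one. Leaving out single arrays gave 16 to 20 lower and 0 to 1 higher, against 676 to 1094 and 617 to 1074 of all 10395 probe sets. Relative to the heart muscle list 13 of 25 negative differences turned positive: Slc22a5 (0.84), Cpt2 (0.23), Slc25a20 (0.65), Crat (0.19), Mlycd (1.39), Acadl (0.17), Acads (1.81), Decr1 (0.15), Etfa (0.15), Etfb (0.10), Ppara (0.70), Pdk4 (0.55) and Ucp3 (1.13). Of these, only Mlycd and Acads were called higher, Acads on a brightest probe set that its other probe set did not match. Against tolerizing allografts 19 of 22 turned positive, of which Slc25a20 (1.45), Mlycd (1.43), Acads (1.47) and Acaa2 (1.04) were called higher. That reference subtracts a list that was itself low, which shows in the shift of all probe sets.

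Counts of all probe sets called lower follow in brackets, out of 10395 unless stated. For tolerizing allografts against isografts at day 7, 7 genes were lower (78). The count was 2 with no filter on low signals (39 of 12422) and 2 with only these groups in the fit (22). It was 0 in the second accession run alone (6), with the beta-actin ratio (2) and relative to heart muscle (1). On leaving out single arrays it was 1 to 6 (26 to 56). For rejecting against tolerizing allografts 1 gene was lower (92). The count was 2 with quantile scaling (104 of 10393) and 2 with the floor at the 50th percentile (104 of 7199). It was also 2 with a pseudocount of 16 in place of the floor (97) and in the second run alone (108). It was 0 with no filter (39 of 12422), only these groups (16), the beta-actin ratio (29) or the mean over probe sets (77 of 7366). Relative to heart muscle it was 0 (17), with 8 higher against 75.0% of all probe sets. On leaving out single arrays it was 0 to 7 (26 to 467), with 0 to 1 higher. In tolerizing allografts against isografts at day 70, 4 genes were lower (89). The count was 1 with no filter (89 of 12422), 2 without the intensity trend (83) and 1 with the beta-actin ratio (72). It was 0 with only these groups (5) or relative to heart muscle (3). On leaving out single tolerizing arrays it was 0 to 6 (27 to 67). Settings that leave 1 isograft at day 70 are given by their medians above. More probe sets are tested without the filter, and fewer arrays enter the second run or a fit of only the groups compared. The cause of a changed count was not tested for any setting.

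With the replicate number as a block the counts were 22, 7, 1 and 4 for these 4 comparisons, and 0 for both comparisons over time and the interaction, so the pairing changed no count by over 1.5 times. Apart from tolerizing allografts over time, same-numbered arrays had correlations of -0.18 to 0.25, and 3, 2 and 4 of 6 arrays matched best with their own number in the 3 comparisons at day 7. Groups of 2 or 3 arrays, and signals near the floor for Slc27a1 and Ucp3, limit the precision.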
